A study of Mus musculus with 10 samples.

Results

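Interferon-stimulated genes are the genes that cells switch on when interferon reaches them, and 37 of them were followed here through open chromatin in mouse bone marrow progenitors. Peaks of 10 ATAC-seq libraries were merged where they shared at least 1 bp on chromosomes 1 to 19 and X, and the regions whose centre lay inside or within 20 kb of the mm10 span of a listed gene were taken, each once. This gave 221 member regions of 114366 merged regions in all. Each of the 37 genes had at least 2, and the most, 16, lay at Ifih1. The rule used gene names and positions and no peak pattern.

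ATAC-seq uses a transposase to cut and tag DNA that is not covered by nucleosomes, so a peak marks open chromatin and is not a measure of transcription. The cells were sorted from C57BL/6 bone marrow, first on magnetic columns and then by flow cytometry, and nothing in the labels names a treatment with interferon or an infection. Wild-type (WT) long-term hematopoietic stem cells (LT-HSC) were sorted as Lin- CD117+ Sca-1+ CD135- CD48- CD150+. WT lymphoid-primed multipotent progenitors (LMPP) were Lin- CD117+ Sca-1+ CD135+, and their cell type field named short-term stem cells instead. WT monocyte-dendritic cell progenitors (MDP) were Lin- Sca-1- CD117+ IL-7R- CD115+, and WT common dendritic cell progenitors (CDP) were Lin- Sca-1- IL-7R- CD115+ CD135+ with intermediate CD117. The last group, IRF8KO MDP, came from IRF8-deficient mice. The sources used here give neither the allele nor the ages nor the animals behind each library. Each group had 2 libraries, called biological duplicates for the WT cells only.

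Type I interferon binds a receptor whose kinases, JAK1 and TYK2, activate STAT transcription factors. A complex that includes IRF9 then binds the interferon-stimulated response element, a pair of GAAA cores in the promoters of these genes. Their products block viral entry, replication and translation, and several feed back on interferon signalling. IRF8, the factor missing in the knockout, belongs to the same family of interferon regulatory factors, binds such elements and composite elements with PU.1, and is needed for monocyte and dendritic cell development.

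Start-site windows of 300 bases (250 before and 50 after the start, RefSeq, GRCm38.p6) were found for 30 of the 37 genes, 35 windows in all. The other genes, Oas2, Dhx58, Zbp1, Usp18, Parp9, Parp14 and Mx2, had no entry. The paired core (GAAA, any 2 bases, GAAA), searched on both strands, was in 16 of the 35 windows, 45.7% (Wilson 95% interval 30.5 to 61.8), and in 3.46% of all 32619 windows of the table. The composite of an ETS and an IRF core (GGAA, any 2 bases, GAAA) was in 6 windows (17.1%, against 2.73% of all), TTCNNNGAA, the STAT core, in 8 (22.9%, against 8.34%), and GAGGAAGT, a PU.1 core, in 3 (8.57%, against 3.22%). The paired core and the composite cannot match at the same start on the same strand, since their second bases differ, and a match is a description of letters, not of a bound site.

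The 200 bases before the start of 6 genes are shown 5′ to 3′ on the strand of the gene, because they set 5 promoters that hold the paired core, and Ifi44, which does not, side by side with very different detection. Capitals mark only the paired core or its reverse complement (TTTC, any 2 bases, TTTC), and matches that overlap run together. The Ifi44 window does hold 1 match of the composite of an ETS and an IRF core, which is left in small letters.
Ifit1: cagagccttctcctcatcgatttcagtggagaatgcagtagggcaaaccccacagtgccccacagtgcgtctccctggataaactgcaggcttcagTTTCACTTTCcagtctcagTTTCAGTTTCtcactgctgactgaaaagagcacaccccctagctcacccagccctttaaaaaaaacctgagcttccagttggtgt
Ifit3: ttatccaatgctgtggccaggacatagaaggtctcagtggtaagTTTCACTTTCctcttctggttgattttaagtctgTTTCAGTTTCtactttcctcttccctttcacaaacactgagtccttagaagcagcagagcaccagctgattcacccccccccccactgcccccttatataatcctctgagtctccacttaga
Isg15: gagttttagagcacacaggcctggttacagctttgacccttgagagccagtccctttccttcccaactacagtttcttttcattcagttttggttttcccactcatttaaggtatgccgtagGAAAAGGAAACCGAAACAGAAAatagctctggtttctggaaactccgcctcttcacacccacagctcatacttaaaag
Oas1a: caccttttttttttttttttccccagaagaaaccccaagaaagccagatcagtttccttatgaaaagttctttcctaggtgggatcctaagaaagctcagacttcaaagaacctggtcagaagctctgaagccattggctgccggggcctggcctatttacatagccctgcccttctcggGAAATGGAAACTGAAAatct
Gbp2: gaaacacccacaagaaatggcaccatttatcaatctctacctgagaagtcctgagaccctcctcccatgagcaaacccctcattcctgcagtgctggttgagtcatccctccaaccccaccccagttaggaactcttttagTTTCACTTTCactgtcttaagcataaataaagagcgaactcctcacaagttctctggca
Ifi44: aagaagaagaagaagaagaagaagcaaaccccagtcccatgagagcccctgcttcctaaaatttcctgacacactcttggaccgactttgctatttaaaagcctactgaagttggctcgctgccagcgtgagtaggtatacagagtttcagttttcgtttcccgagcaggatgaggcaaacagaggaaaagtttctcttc

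These stretches lie at chr19:34640689-34640888 (Ifit1, plus strand), chr19:34583329-34583528 (Ifit3, plus), chr4:156200819-156201018 (Isg15, minus), chr5:120907526-120907725 (Oas1a, minus), chr3:142620463-142620662 (Gbp2, plus) and chr3:151749911-151750110 (Ifi44, minus). Ifit1, an RNA-binding protein with tetratricopeptide repeats, and Gbp2, a guanylate-binding GTPase, had a peak over the start-site window in all 10 libraries. Isg15, the ubiquitin-like modifier, holds 3 overlapping matches and had a peak in 8 libraries, missing in CDP replicate 2 and IRF8KO MDP replicate 1. Oas1a, an oligoadenylate synthetase that acts through RNase L, holds 2 overlapping matches next to the start and had a peak only in WT MDP replicate 2 and IRF8KO MDP replicate 2. Ifit3, the neighbour and partner of Ifit1, holds 2 matches and had a peak in LMPP replicate 1 alone. Ifi44, a cytoplasmic interferon-induced protein, had a peak in LT-HSC replicate 2 and both LMPP libraries.

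Of the 35 windows, 24 (68.6%, interval 52.0 to 81.4) had a peak in all 10 libraries and 1, at Oasl2, in none. Over all windows of the table the shares were 33.9% and 48.2%. Among member windows that hold the paired core, 11 of 16 (68.8%) were detected in all 10 libraries, and among those without it 13 of 19 (68.4%). Over the whole table, 26.5% of the 1129 windows with the paired core and 34.2% of those without it were. Per library, between 26 (LT-HSC replicate 1) and 33 (LMPP replicate 1) of the 35 member windows were detected, with 30 and 30 in WT MDP and 28 and 32 in IRF8KO MDP. Of all windows of the table, 38.0% were detected in LT-HSC replicate 1 and 44.7% in LMPP replicate 1. The same share was 43.6% and 43.5% in WT MDP and 40.9% and 41.6% in IRF8KO MDP. Ifit3 and the Oas1a cluster have close copies nearby, and the handling of reads that map to several places was not given in the sources used here, so detection at these genes is uncertain.

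**Figure D1:**
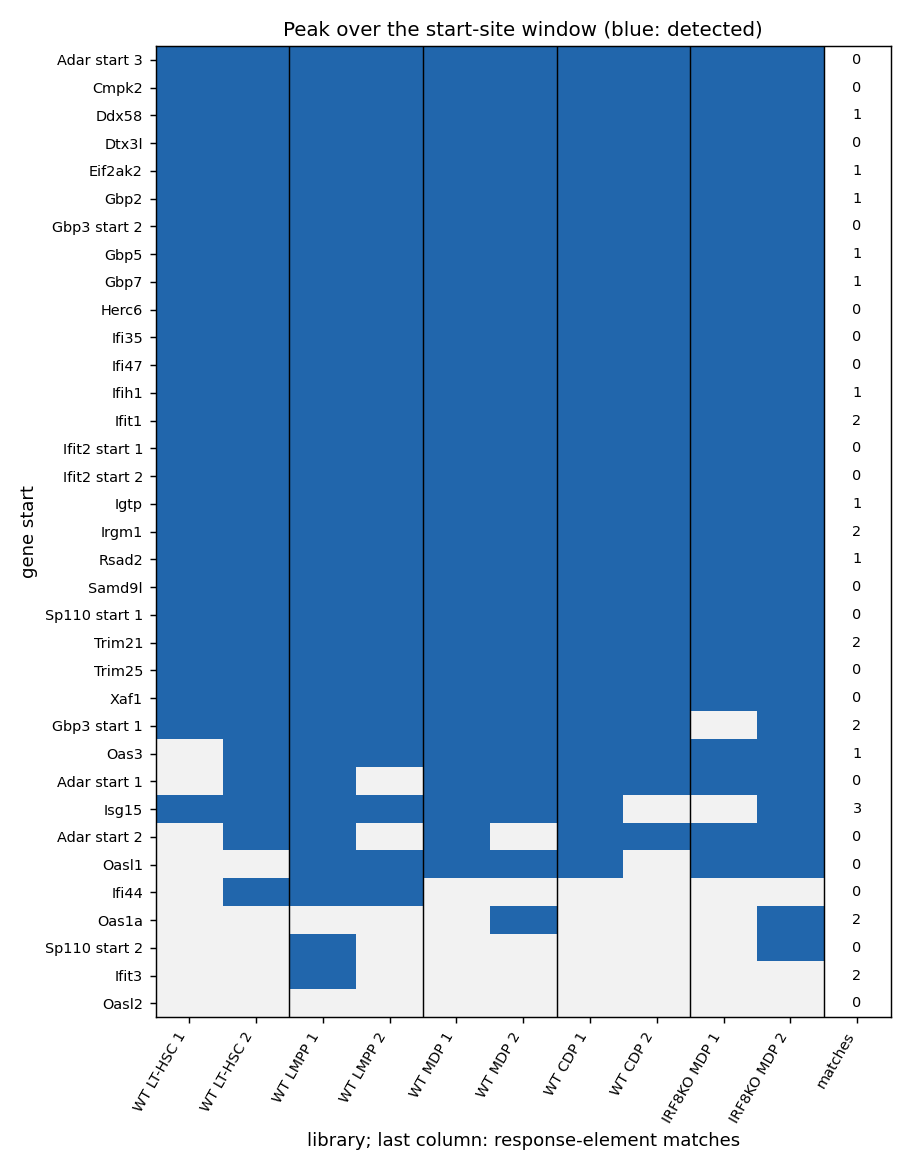
Each row is a start-site window of a member gene and each column a library, blue where a peak overlaps the window, with the number of paired-core matches in the last column. Starts of 1 gene are numbered by position along the chromosome, 24 of 35 rows are blue throughout, and matches stand in rows of both kinds.

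The libraries differed in depth and quality. Total tags ran from 4790046 to 10166833, the CDP libraries being the deepest, and peaks per library from 31325 to 69598. LT-HSC replicate 1 stood apart, with 31325 peaks and 19.32% of tags in peaks, against 50728 to 69598 peaks and 38.06 to 53.74% in the other 9. Regions near stem cell genes (Mecom, Procr, Hlf, Slamf1), 74 in all, numbered 17 and 47 in LT-HSC, 48 and 56 in LMPP, 22 and 22 in WT MDP, 15 and 13 in CDP, and 11 and 10 in IRF8KO MDP. Of 36 regions near Csf1r, Cx3cr1 and Irf8, the libraries detected 3 and 9, 12 and 12, 23 and 23, 32 and 30, and 19 and 20 in the same order. Of 25 near neutrophil genes (Elane, Mpo, S100a8) they detected 1 and 9, 8 and 9, 13 and 16, 14 and 14, and 17 and 15. Erythroid genes (Gata1, Klf1, Alas2) had 11 and 11 of 13 in LT-HSC and 7 or 8 in each library of the other groups. T cell genes (Cd3e, Cd3g) had 2 to 4 of 5. The neutrophil counts of LT-HSC thus lay below those of WT MDP and CDP, and the erythroid counts above those of the other groups. Both LMPP libraries had more regions near stem cell genes than either LT-HSC library. The LT-HSC libraries also detected fewer regions in all, 30181 and 50699, against 59890 and 61966 in WT MDP and 68333 and 63897 in CDP. The part of these differences in the results was not tested. Fewer cells with an open region and a weaker opening in each cell cannot be told apart in such bulk libraries.

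Member regions numbered 81 and 120 in LT-HSC, 122 and 122 in LMPP, 136 and 142 in WT MDP, 154 and 138 in CDP, and 121 and 128 in IRF8KO MDP. The counts of WT MDP and CDP overlapped, and those of the other 4 pairs compared (LT-HSC with LMPP, LMPP with WT MDP, LT-HSC with CDP, WT MDP with IRF8KO MDP) did not. In exact two-sided permutation tests over libraries, p was 0.333 for the comparisons without overlap, the smallest that 2 against 2 libraries allow, and 0.667 for WT MDP with CDP (adjusted over 5 comparisons, 0.416 and 0.667). Per 1000 detected regions of the library, members made up 2.68 and 2.37 in LT-HSC, 1.98 and 1.95 in LMPP, 2.27 and 2.29 in WT MDP, 2.25 and 2.16 in CDP, and 2.49 and 2.44 in IRF8KO MDP (p = 0.333 in each exact permutation test). The order of the counts and of the shares thus differed: IRF8KO MDP had fewer member regions than WT MDP but a larger share of its list. With lists kept to the same number of peaks, the difference in the count was 7.0 regions higher in IRF8KO MDP, in place of 14.5 lower.

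**Figure D2:**
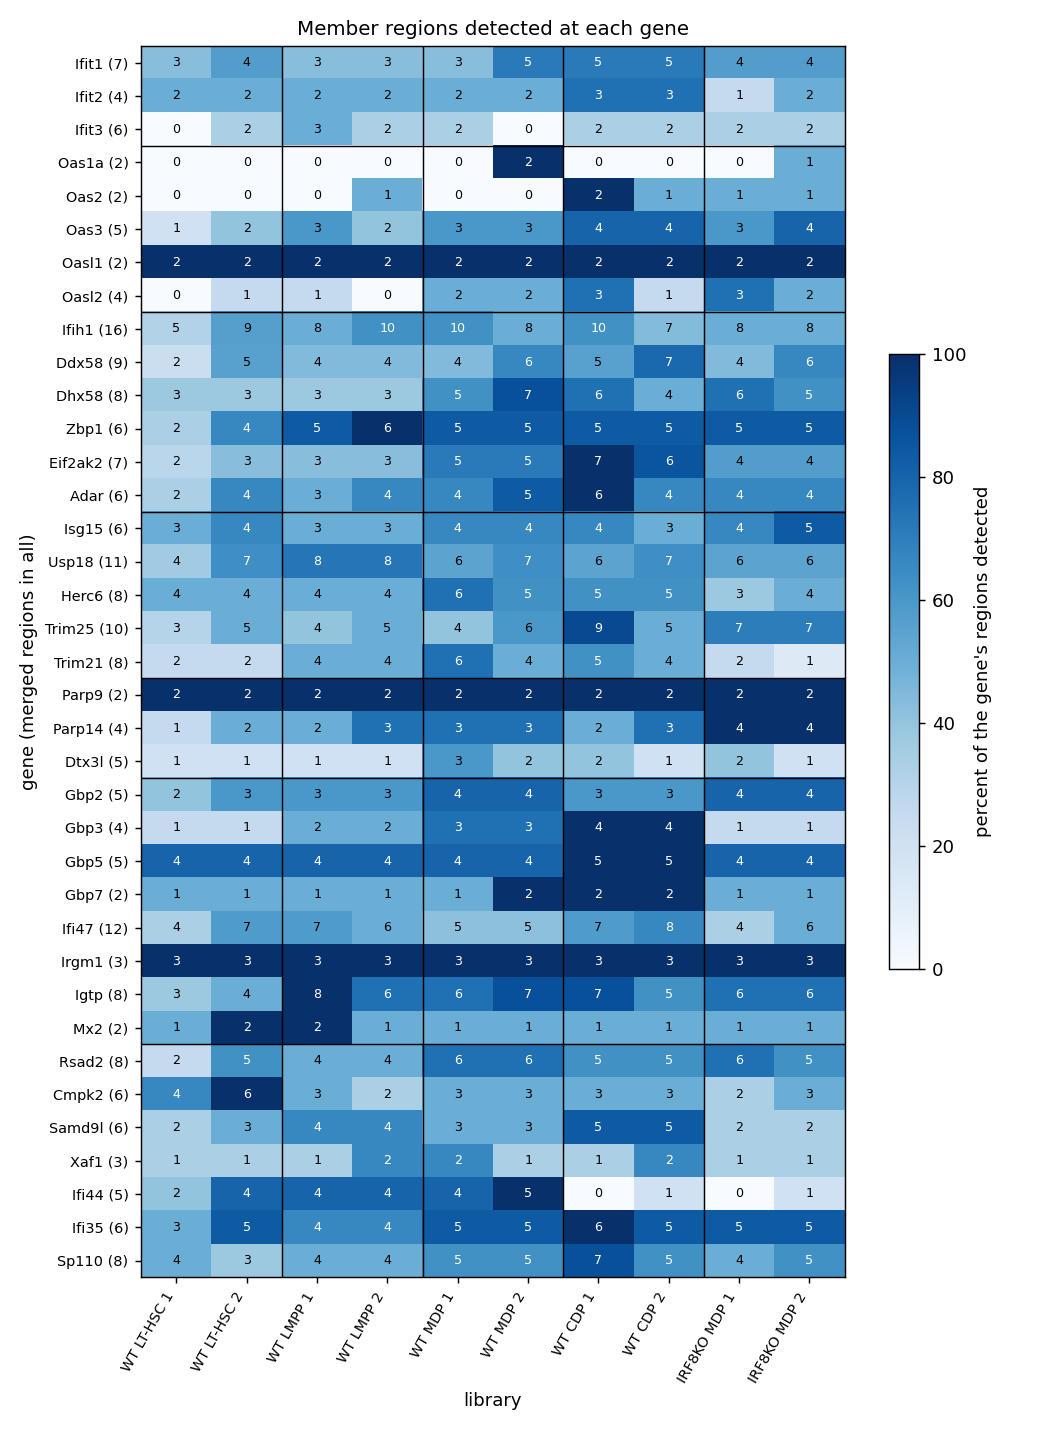
Each row is a member gene with its number of merged regions in brackets, each column a library, and each cell gives the number of regions detected, shaded by their percent of the gene's regions. Horizontal lines separate the gene families, Oasl1, Parp9 and Irgm1 are fully shaded throughout, and Ifi44 drops to 0 or 1 region in CDP and IRF8KO MDP.

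Most member genes had an assigned region that was open at every stage, in some cases over a start-site window of another gene. Detection in all 10 libraries was found for 64 member regions, 29.0% (Wilson interval 23.4 to 35.3), where 17.0% of all merged regions and 19.6% of regions within 20 kb of a protein-coding gene had it. Over start-site windows of any gene the member share was 63.5% (33 of 52), against 68.1% of all such regions, and away from them 18.3% (31 of 169, interval 13.2 to 24.9), against 10.6%. At the other end, 36 member regions (16.3%) appeared in 1 library, against 19.1% of all. Member regions detected in all 10 libraries lay high in the WT MDP lists, at a median of 24.8% and 23.9% from the top. Their median width was 1543 bp against 800 bp for all members. A merged region joins the peaks of the libraries that hold it, so one found in more libraries tends to be wider by construction. Neither value is set here against all merged regions found in 10 libraries. Position in a list is taken as peak strength, an assumption that the files do not state. Positions describe a region within its own list, and since the lists differ in length they are set side by side without reading a change from them. They correlated between replicates across regions (Spearman's rho 0.849 to 0.934 over the member regions found in both).

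**Figure D3:**
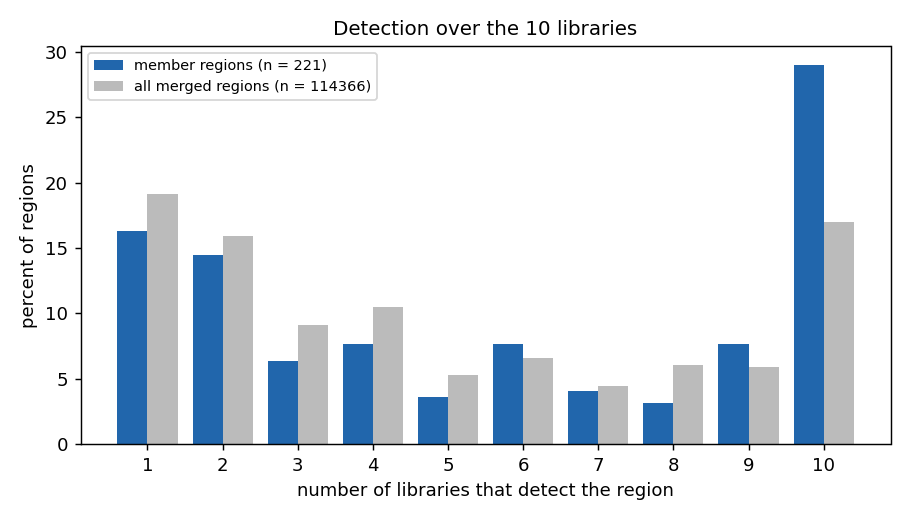
Bars give the percent of member regions (blue, 221) and of all merged regions (grey, 114366) detected in exactly 1 to 10 libraries. The member bar at 10 libraries stands at 29.0% against 17.0% for all regions, and at 1 library at 16.3% against 19.1%.

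The genes whose regions were open throughout came from every family. All 3 regions of Irgm1, an immunity-related GTPase that acts in autophagy and in stem cell maintenance under interferon, were detected in all 10 libraries. So were both regions of Oasl1, which limits translation of Irf7, and both of Parp9, an ADP-ribosyltransferase. The Parp9 region at chromosome 16, 35938307 to 35940357 also covers the start site of its partner Dtx3l. The other lies 10.2 kb outside Parp9, nearest to Kpna1, over a start-site window of another gene. Both Isg15 regions found throughout also overlap start-site windows of other genes, nearest to Agrn and Perm1. Gbp5, a guanylate-binding protein of the inflammasome response, had 4 of 5 in all libraries and Ifih1, which encodes the RNA sensor MDA5, 4 of 16. Ifit3, Oas1a, Oas2, Oasl2, Dtx3l and Ifi44 had none assigned to them. A region was assigned to the nearest listed gene, and for 90 of the 221 the nearest protein-coding gene was another that is not listed.

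A region is called gained here when both libraries of the later group and neither of the earlier detect it, and lost in the reverse case. Shares are of the regions detected in at least 1 of the 4 libraries, with Wilson 95% intervals that cover counting error only, and regions at 1 gene are not independent. The same shares over all merged regions are the background. Leaving out a library loosens the rule and raises both the member share and the background. Comparisons that use the same libraries (LT-HSC, LMPP, WT MDP and CDP each recur) share their errors.

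From stem cells to LMPP, 12 regions at 10 interferon-stimulated genes opened and 4 closed. Of 150 regions, 12 were gained (8.0%, interval 4.64 to 13.5, background 18.5%) and 4 were lost (2.67%, interval 1.04 to 6.66, background 2.37%). Without LT-HSC replicate 1 the shares were 8.72% and 9.4% (backgrounds 19.1% and 9.92%), so the share lost depends on that library. The share gained was 24.3% without LT-HSC replicate 2, 14.7% without LMPP replicate 1 and 13.5% without LMPP replicate 2, where the backgrounds rose to 37.2%, 29.1% and 27.9%. Regions gained lay at Ifit1, Ifit3, Ifih1, Zbp1, Usp18 (2), Trim21, Gbp3, Igtp (2), Samd9l and Sp110, and regions lost at Ifit1, Ifih1 and Cmpk2 (2). With all lists kept to the 31325 peaks of the shortest, 4.17% were gained and 13.5% lost (backgrounds 11.3% and 9.12%), none of the 12 was still called gained, and 3 of the 4 were still called lost.

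From LMPP to WT MDP, few member regions closed. Of 176 regions, 21 were gained (11.9%, interval 7.94 to 17.6, background 12.9%), a share near the background. Lost were 6 (3.41%, interval 1.57 to 7.24, background 13.4%), and away from start-site windows 6 of 127 (4.72%, background 14.8%). With equal lists the loss was 4.07% (background 13.3%), and without LMPP replicate 1, LMPP replicate 2, WT MDP replicate 1 or WT MDP replicate 2 it was 8.24%, 7.14%, 6.51% and 6.13% (backgrounds 20.2%, 19.6%, 16.3% and 17.2%). It thus stayed under the background in each of these settings. The gain was 20.1% without WT MDP replicate 1 (background 19.3%). The losses lay at Ifit2, Ifih1, Usp18 (2) and Samd9l (2), and the gains at 17 genes, with 2 regions each at Dhx58, Eif2ak2, Herc6 and Rsad2 and 1 each at Ifit2, Oas3, Oasl2, Ddx58, Isg15, Trim21, Dtx3l, Gbp2, Gbp3, Samd9l, Ifi44, Ifi35 and Sp110. All 27 calls were also made with equal lists of 62130 peaks. The full lists of these groups held 62130 to 64515, so that setting left out few peaks. With the first 75% of rows, 15 of the 21 gains and 4 of the 6 losses were also called.

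From WT MDP to CDP, the member shares were near the background. Of 184 regions, 12 were gained (6.52%, interval 3.77 to 11.1, background 8.8%) and 8 lost (4.35%, interval 2.22 to 8.34, background 4.94%). Gains lay at Ifit2, Ifit3, Oas2, Oas3, Eif2ak2 (2), Trim25, Gbp3, Gbp5, Ifi47 and Samd9l (2), and losses at Ifi44 (3), Ifih1, Dhx58, Trim21, Dtx3l and Rsad2. Without CDP replicate 2 the gain was 13.3% and the loss 6.67% (backgrounds 15.5% and 6.55%), without CDP replicate 1 the loss was 9.3% (background 8.03%), and without either WT MDP library the gain was 10.0% and 10.1% (backgrounds 12.4% and 13.4%) and the loss 7.78% and 6.74% (backgrounds 9.91% and 8.72%). With equal lists 7 of the 12 gains and all 8 losses were also called, and the balance turned to 4.62% gained and 6.36% lost (backgrounds 7.52% and 6.27%).

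When the ends of the path, LT-HSC and CDP, were compared, 38 of 186 regions were gained (20.4%, interval 15.3 to 26.8, background 30.5%) and 6 lost (3.23%, interval 1.49 to 6.86, background 6.85%). By gene, 25 of 37 had net gain, 2 net loss (Cmpk2 and Ifi44, 2 regions each) and 10 neither. The matching counts over all genes are not given here, and the region share gained lay below its background. The most net gain, 3 regions each, fell at Gbp3 and Eif2ak2. Without LT-HSC replicate 1 the loss was 10.8% (background 18.3%) and without CDP replicate 1 5.36% (background 8.43%), and without LT-HSC replicate 2 or CDP replicate 2 the gain was 32.6% and 31.5% (backgrounds 46.0% and 40.2%). The balance depended on list length: with all lists at 31325 peaks, 8.0% were gained and 23.0% lost (backgrounds 21.3% and 18.0%). Of the 38 gains, 5 were still called then, at Gbp3 (2), Herc6, Oas3 and Oasl2, and 5 of the 6 losses, at Cmpk2, Ifi44 (2), Ifih1 and Ifit1.

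**Figure D4:**
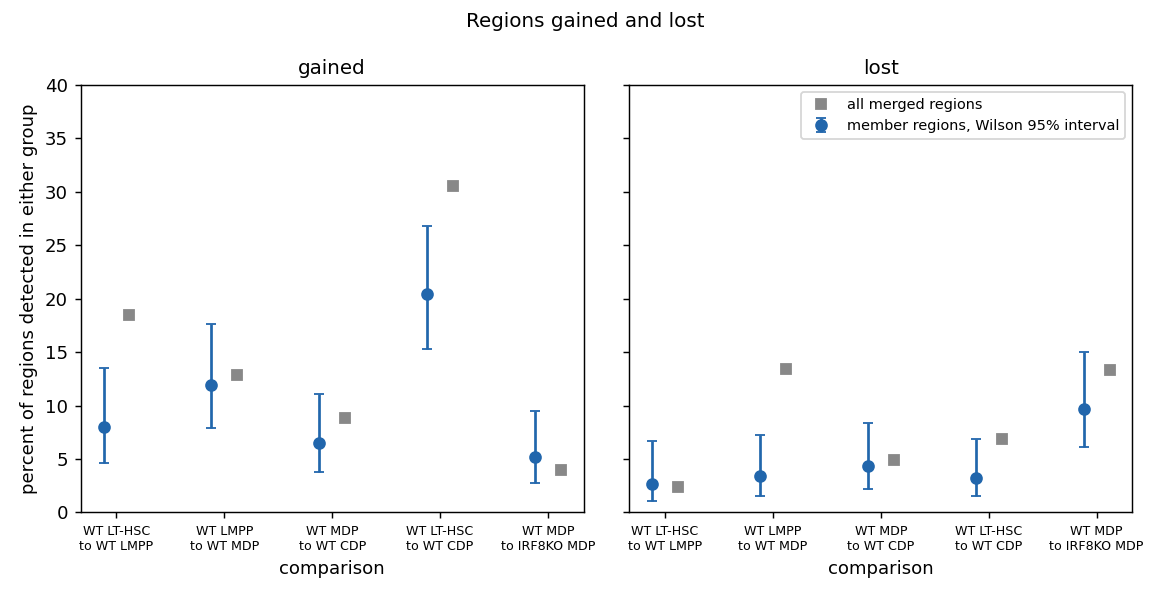
Points give the percent of member regions gained (left) and lost (right) in each comparison with Wilson 95% intervals, and grey squares the same over all merged regions. The member interval lies below the square for regions gained from LT-HSC to LMPP and to CDP and for regions lost from LMPP to WT MDP, and holds or touches it in the others.

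Between WT MDP and IRF8KO MDP, 17 of 175 member regions were lost (9.71%, interval 6.15 to 15.0, background 13.3%) and 9 gained (5.14%, interval 2.73 to 9.48, background 3.96%), both near the background. By gene, 10 had net loss, 6 net gain and 21 neither, without the matching counts over all genes. Away from start-site windows 16 of 129 were lost (12.4%, background 15.1%). Of the 17 lost, 1 overlapped a start-site window of any gene, and of the 9 gained none did. With equal lists of 50728 peaks, the length of the shorter knockout list, the balance turned to 7.19% lost and 9.8% gained (backgrounds 9.62% and 7.41%). Of the 17 losses, 11 were also called then, and of the 9 gains, 8. Without either WT MDP library the loss was 17.1% (backgrounds 21.2% and 20.3%), and the gain was 9.15% without WT MDP replicate 2 (background 6.74%) and 10.3% without IRF8KO MDP replicate 1 (background 8.88%).

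**Figure D5:**
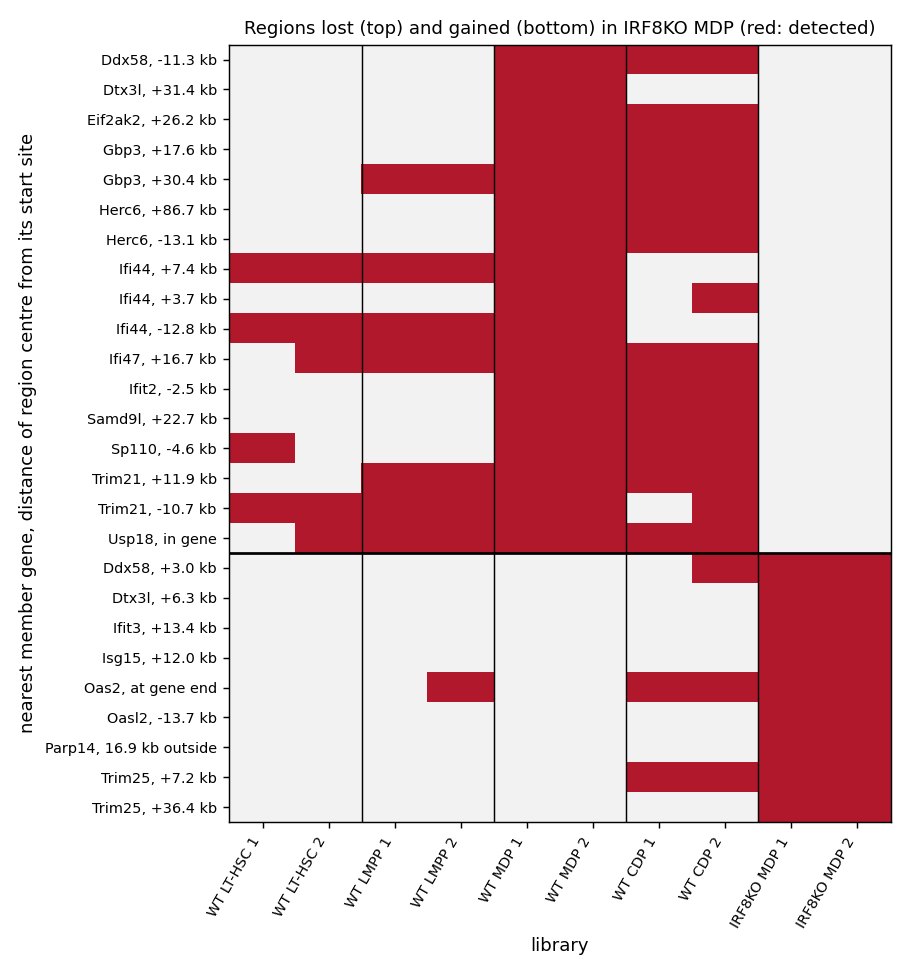
Each row is a member region lost (upper block) or gained (lower block) in IRF8KO MDP, named by gene and distance from its start site or from the gene where no start was found, each column a library, red where a peak was detected. Most rows of the upper block are also red in CDP, and 6 of the 9 rows of the lower block are red in the knockout libraries alone.

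By family, the IFIT genes encode tetratricopeptide proteins that bind foreign RNA and block its translation. Their 17 regions gave 1 loss and 1 gain without IRF8 (backgrounds 13.3% and 3.96%). Totals by family, here and below, count all regions, while the backgrounds are of regions detected in either group. No family was tested against them. The region lost, chromosome 19, 34547905 to 34548461, lies 2.37 kb outside Ifit2 and was found in all 4 libraries of WT MDP and CDP and in none of the other 6. The region gained lies 13.4 kb past the start of Ifit3, nearest to Ifit1bl1, and sat at the end of the lists that hold it (99.5% and 95.8%). A region 15.8 kb past the start of Ifit1 (34656204 to 34657179) was detected in both LT-HSC libraries alone, at 26.8% and 17.8% from the top.

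Oligoadenylate synthetases sense double-stranded RNA and activate RNase L. Their genes, together with the related Oasl1 and Oasl2, had 15 regions. From LT-HSC to CDP 4 were gained and without IRF8 2 (backgrounds 30.5% and 3.96%). None was lost in the 5 comparisons, a count that so few regions do not set apart from backgrounds of 2.37 to 13.4%. A region 9.6 kb outside Oas3 and another 4.67 kb past the end of Oasl2 were each detected in the 6 MDP and CDP libraries, knockout included, and in none of LT-HSC or LMPP. The Oasl2 region stood at 51.6% and 40.8% from the top of the WT MDP lists and at 80.2% and 68.7% of the shorter knockout lists. At the edge of Oas2 that faces Oas3, a region (chromosome 5, 120749545 to 120750260) was detected in LMPP replicate 2, both CDP and both IRF8KO MDP libraries, and in neither WT MDP library. Oas1a had 2 regions, detected only in WT MDP replicate 2, and 1 of them also in IRF8KO MDP replicate 2.

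Genes for sensors and kinases had 52 regions, with 2 losses and 1 gain without IRF8 (backgrounds 13.3% and 3.96%). Ddx58, which encodes the RNA sensor RIG-I, lost a region 11.3 kb before its start found in the 4 libraries of WT MDP and CDP, at 51.4 to 66.3%, and gained a region 2.98 kb inside the gene that CDP replicate 2 also held. Eif2ak2 encodes the kinase PKR, which halts translation on binding double-stranded RNA. Its lost region, 26.2 kb inside the gene, was detected in WT MDP and CDP only, and 2 more regions at this gene were detected in CDP only. Dhx58, which encodes LGP2, gained 2 regions from LMPP to WT MDP, of which 1 inside the gene stayed in all CDP and knockout libraries and stood at 44.8% and 43.5% of the WT MDP lists, 48.3% in knockout replicate 1 and 83.5% in CDP replicate 1. Ifih1, Zbp1, the sensor of Z-form nucleic acid, and Adar, the RNA-editing enzyme, had no region gained or lost without IRF8.

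In the ISG15 system a ubiquitin-like protein is joined to targets by ligases such as HERC6 and removed by USP18. Genes of this system and the ubiquitin ligases Trim25 and Trim21 had 43 regions. There were 5 losses and 3 gains without IRF8 (backgrounds 13.3% and 3.96%). Usp18, which also restrains signalling at the interferon receptor, lost a wide region inside the gene (chromosome 6, 121250944 to 121252883). It ranked at 59.1% in LT-HSC replicate 2, 54.8% and 52.7% in LMPP, 26.3% and 32.6% in WT MDP and 12.5% and 16.5% in CDP, and no peak overlapped it in either knockout library or in LT-HSC replicate 1. Herc6 lost regions 13.1 kb before its start and 2.56 kb past its end, both found in WT MDP and CDP only. Trim21, a cytosolic antibody receptor, lost regions 11.9 kb past and 10.7 kb before its start, of which the latter was weak in WT MDP (97.6% and 97.9%).

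Gains in this family were at Isg15 and Trim25. The Isg15 region, 10.6 kb past the end of the gene and nearest to Agrn (chromosome 4, 156188466 to 156189247), was detected in both knockout libraries alone and was the highest placed of the 9 gains, at 26.9% and 29.3%. Trim25, the ligase that activates RIG-I, gained a region 7.24 kb inside the gene, which was also in CDP at 94.8% and 98.5% and in the knockout at 46.6% and 47.7%. A further region, 15.5 kb outside Trim25, was in the knockout alone.

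PARP9 and DTX3L form a complex of an ADP-ribosyltransferase and a ubiquitin ligase, and PARP14 is a related transferase. Their 3 genes had 11 regions, with 2 gains and 1 loss without IRF8 (backgrounds 3.96% and 13.3%). The region gained inside Dtx3l (chromosome 16, 35932254 to 35933190) was in both knockout libraries alone, at 44.0% and 40.2%, as was that 16.9 kb outside Parp14, at 69.7% and 61.7%. The region lost, 18.9 kb past the end of Dtx3l, was detected in both WT MDP libraries alone.

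The interferon-induced GTPases, guanylate-binding proteins and immunity-related GTPases that act on the vacuoles of intracellular pathogens, had 41 regions. There were 3 losses and no gain without IRF8 (backgrounds 13.3% and 3.96%). Both wide regions past Gbp3 were among the losses. The region at chromosome 3, 142590113 to 142591373, which lies nearest to Gbp2b, was at 91.4% and 72.3% in LMPP, 10.6% and 13.6% in WT MDP and 6.78% and 8.05% in CDP, and was absent from LT-HSC and IRF8KO MDP. It was the highest placed of the 17 losses. The region at 142577083 to 142578820 was at 30.4% and 29.6% in WT MDP and 24.0% and 30.9% in CDP and was found in no other library. Gbp3 went from 1 region in each LT-HSC library to 2 in LMPP, 3 in WT MDP and 4 in CDP, with 1 in each IRF8KO MDP library. No other member had a net gain at each of the 3 steps in the full lists. The Gbp3 net gain from LT-HSC to LMPP was 0 with equal lists, the first 75% of rows, 50% cover or the gene span alone. Gbp3 was singled out after these values were seen, without the matching count over all genes.

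The other GTPases changed less. Ifi47 lost a region 16.7 kb inside the gene, which was weak in WT MDP (87.5% and 74.6%). That loss turned to a net gain of 1 without IRF8KO MDP replicate 1 or when a peak had to cover 50% of the region. Gbp2, Gbp5, Gbp7, Irgm1, Igtp and Mx2, the last annotated as a transcribed pseudogene, had no region gained or lost in the knockout. From LT-HSC to CDP, Ifi47 gained 2 regions and Gbp5, Gbp7 and Igtp 1 each (background 30.5%), the Gbp5 region being in CDP alone.

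The remaining effectors had 42 regions, with 5 losses and no gain without IRF8 (backgrounds 13.3% and 3.96%). Of the losses, 3 were at Ifi44. Of the 5 Ifi44 regions, 2 and 4 were detected in the LT-HSC libraries, 4 and 4 in LMPP, 4 and 5 in WT MDP, 0 and 1 in CDP, and 0 and 1 in IRF8KO MDP. CDP and IRF8KO MDP thus lay below every library of the other groups. The regions at chromosome 3, 151741968 to 151743014 inside the gene and 151762104 to 151763411, which lies 12.8 kb before the start and overlaps a start-site window of another gene, nearest to Ifi44l, were detected in all 6 libraries of LT-HSC, LMPP and WT MDP and in none of CDP or IRF8KO MDP. Over all merged regions, 0.168% had that pattern, and no other member region had it. Ifi44 was singled out after these values were seen.

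In LMPP the Ifi44 region inside the gene ranked at 17.0% and 28.1% and the other at 10.7% and 8.25%, and in WT MDP at 66.3% and 86.0% and at 48.3% and 69.6%. A region 3.69 kb past the start (151745962 to 151746488) was in both WT MDP libraries, at 53.1% and 45.4%, and in CDP replicate 2, and a region 14.5 kb past the gene's end was lost from WT MDP to CDP. With equal lists in the knockout comparison 2 of the 3 losses were also called, and in the step to CDP all 3.

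Cmpk2, a mitochondrial nucleotide kinase next to Rsad2, had 2 regions in both LT-HSC libraries and in no other, inside the gene and 6.36 kb past its end. The former ranked at 41.7% and 38.8% and the latter at 72.3% and 65.5%. Rsad2, which encodes viperin, an enzyme that makes a chain-terminating nucleotide, gained a region 6.75 kb inside the gene that stayed in all WT MDP, CDP and IRF8KO MDP libraries. Samd9l, which restrains growth of myeloid cells, had a wide region (chromosome 6, 3383371 to 3385251) in both LMPP libraries alone, a region in CDP alone, and a region 22.7 kb inside the gene in WT MDP and CDP alone that was lost without IRF8.

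Sp110, a nuclear body protein, lost a region in the knockout that lies inside the gene. Xaf1, which antagonizes an inhibitor of apoptosis, and Ifi35, a leucine zipper protein, had none gained or lost there. Xaf1 had no region gained or lost in any of the 5 comparisons. Among the other genes this held for Oas1a, Oasl1, Parp9, Irgm1 and Mx2.

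Over the 10 libraries, regions that were detected in both libraries of some groups and in no other library gave few patterns beyond the 64 found throughout. WT MDP and CDP alone held 7 (3.17% of members, background 3.89%), at Gbp3, Ddx58, Samd9l, Herc6 (2), Eif2ak2 and Ifit2. IRF8KO MDP alone held 6 (2.71%, background 1.76%), at Isg15, Oasl2, Trim25, Parp14, Dtx3l and Ifit3. CDP alone also held 6 (2.71%, background 4.62%), at Gbp5, Gbp3, Samd9l, Eif2ak2 (2) and Ifit3. The 3 shares were near their backgrounds.

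Both kinds of MDP and CDP together held 5 (2.26% of members, background 2.19%), at Isg15, Oasl2, Oas3, Dhx58 and Rsad2. These were detected with and without IRF8 but not in LT-HSC or LMPP, and their share was near the background. LT-HSC alone held 4 (1.81%, background 1.3%), at Ifih1, Cmpk2 (2) and Ifit1. All groups but LT-HSC held 3 (1.36%, background 3.18%), at Zbp1, Usp18 and Ifit1. LMPP alone held 2 (0.905%, background 3.78%), at Samd9l and Usp18. LMPP, WT MDP and CDP held 2 (0.905%, background 1.33%), at Gbp3 and Trim21. Without LT-HSC replicate 1, the count for LT-HSC alone was 10 (background 4.96%).

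A list of 31 genes that carry or restrain the interferon signal (receptors, JAK and STAT proteins, interferon regulatory factors other than Irf8, inhibitors, and sensing receptors and adaptors), all matched and with 282 regions of their own, shared no region with the members. From LT-HSC to CDP, 28.3% of its regions detected in either group were gained and 4.17% lost, against 20.4% and 3.23% of the members and 30.5% and 6.85% of all regions. Without IRF8, 12 of 227 were lost (5.29%, interval 3.05 to 9.01) and 6 gained (2.64%), against 9.71% and 5.14% of the members and 13.3% and 3.96% of all regions. The lists were not tested against each other. By gene, 9 had net loss in the knockout, 4 net gain and 18 neither, also without the matching counts over all genes. The most net loss, 2 regions each, fell at Jak1 (of 27 regions) and Tyk2 (of 12), the receptor-bound kinases. Jak1 had the most regions of the listed genes, which leaves more to lose. The most net gain, 2 of 11 regions, was at Ifngr1, a chain of the receptor for interferon gamma.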

How the data were processed

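ATAC-seq peak lists of 10 libraries were used, 1 list per library. The submitters' processing notes name Bowtie 1.1.2, HOMER 4.9, mm10 and GRCm38. Peaks were called by HOMER on single libraries, per the file headers, with a peak size of 500 bp, peaks at least 1000 bp apart, a false discovery rate of 0.001, 4-fold enrichment over the 10000 bp around and at most 1 tag per bp. No source used here mentions a shift for the transposase cut. The score column, as deposited, was 1 in every row, so detection was compared and not signal. Depth per library came from the headers.

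Merging, gene assignment (nearest listed gene span, RefSeq, GRCm38.p6) and counting were written in Python 3 with pandas and numpy and tested on simulated peaks. Start-site windows came from the RefSeq promoter table. With 2 libraries a group no region can pass a test, so gained and lost regions carry no p. Exact permutation tests (scipy) compared member counts per library. For each comparison, the text names every member gene nearest to a gained or lost region, up to 25 genes, then those with the most net regions changed, and from the pathway list the genes of most net change without IRF8. Just inside the 20 kb limit lay a Zbp1 region at 20000 bp, found in 9 libraries, and just outside an Adar region at 20205 bp, found in 10. Of the pathway genes, 2 were matched by an older symbol. A further gene of that list, and 2 of the marker lists, are not reported here. The members and lists were chosen with earlier results of these data known. Alternatives were equal list length, the first 75% of rows, a peak covering 50% of the region, windows of 0 and 50 kb, and leaving out each library.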

Additional observations from a re-analysis of the deposited data

How the results depend on the processing

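Lists differ in length. When they were made equal, the gain from LT-HSC to LMPP was 4.17% and the loss 13.5%, from LT-HSC to CDP 8.0% and 23.0%, and the gain without IRF8 9.8%. Member regions per library then differed by -13.5 from LT-HSC to LMPP, -3.5 from WT MDP to CDP, -16.0 from LT-HSC to CDP and 7.0 from WT MDP to IRF8KO MDP, each opposite in sign to the full lists. The setting keeps fewer peaks of the longer lists by construction. A peak covering 50% of the region gave a gain of 14.9% from LT-HSC to LMPP (background 21.3%). The loss from LMPP to WT MDP was 7.52% with the first 75% of rows, 8.48% with 50% cover and 7.58% inside gene spans (backgrounds 14.7%, 16.0% and 13.4%). The cause was not tested for these.

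Leaving out 1 library, gains and losses ranged from 8.72 to 24.3% and 2.84 to 9.4% (LT-HSC to LMPP), 13.7 to 20.1% and 6.13 to 8.24% (LMPP to WT MDP), 9.3 to 13.3% and 6.67 to 9.3% (WT MDP to CDP), 21.5 to 32.6% and 3.49 to 10.8% (LT-HSC to CDP), and 6.02 to 10.3% and 12.7 to 17.1% (WT MDP to IRF8KO MDP). A group of 1 library passes the rule more easily by construction. Without CDP replicate 1, member regions per library differed by -1.0 between WT MDP and CDP, and over all 4 such settings by -1.0 to 15.0.

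Net changes of single genes turned in 20 cases. With equal lists they were -1 at Igtp and Sp110 from LT-HSC to LMPP, and -3 at Ifit1, Ifih1 and Ifi47, -2 at Herc6 and -1 at Adar, Isg15, Trim21 and Sp110 from LT-HSC to CDP. With the first 75% of rows they were 1 at Usp18 and -1 at Ifi44 from LMPP to WT MDP, -1 at Eif2ak2 from WT MDP to CDP, -1 at Ifit1 and Isg15 from LT-HSC to CDP, and -1 at Oasl2 without IRF8. Inside the gene span Ifih1 was at -1 from LT-HSC to CDP. Without WT MDP replicate 2 Ifih1 was at 2 from LMPP to WT MDP. Ifi47 was at 1 without IRF8 with 50% cover and without IRF8KO MDP replicate 1.

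Alternatives for the patterns and start-site windows were chosen after seeing the data. With the 9 longer lists made equal, regions of IRF8KO MDP alone numbered 10, of WT MDP, CDP and IRF8KO MDP 3, of LMPP, WT MDP and CDP 0, and of LT-HSC, LMPP and WT MDP 1. Without LT-HSC replicate 1, regions of LT-HSC alone numbered 10. Regions found throughout numbered 56 with equal lists and 75 without LT-HSC replicate 1. Start-site windows found throughout numbered 20 with the first 75% of rows and 25 without that library. Apart from LT-HSC alone, given above, these counts stand without the same share over all regions or windows. They are not read as results about the members. No paired analysis was possible because calls come from detection in both libraries with no model, and nothing says that replicate numbers pair libraries.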
